A study of Mus musculus with 8 samples.

Results

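The ribosomal and respiratory chain genes are the autosomal genes whose symbols name a cytosolic ribosomal protein (*Rpl*, *Rps*), a mitochondrial ribosomal protein (*Mrpl*, *Mrps*), or a subunit or assembly factor of respiratory complexes I, III and IV or of ATP synthase (*Nduf*, *Uqcr*, *Cox*, *Atp5*), pseudogenes left out. In the deposited table of promoter methylation they comprised 133 of 9224 genes and 2086 of 203645 cytosines. A further 3 genes with such symbols and 21 cytosines lie on the X chromosome and were not used. The symbols also take in 8 genes that code for neither a ribosomal nor a respiratory chain protein. These are *Rps19bp1* and the genes named as ribosomal S6 kinases, some of which phosphorylate a protein of the small subunit.

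DNA methylation was measured by reduced representation bisulfite sequencing (RRBS) in 8 lines of germline stem (GS) cells, cultured spermatogonia with stem cell activity, with 1 library per line. The 4 control-F1 lines (29, 37, 44 and 45) came from mice born by natural mating, and the 4 ICSI-F1 lines (11, 17, 20 and 21) from mice born by intracytoplasmic sperm injection, in which a sperm is injected into the egg. All 8 lines are labelled wild type, carry B6 in their titles, received no treatment in culture by their labels, and were grown in the same medium with FGF2 and GDNF. A line is thus the unit of replication, and each is a culture that can differ from the others in ways unrelated to conception. The level of a cytosine is the share of its reads that were methylated, a promoter level is the unweighted mean over the cytosines assigned to a gene, and a group value is the mean of 4 lines. In a culture, a level between 0% and 100% cannot tell a share of the cells from a share of the alleles in each cell.

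Ribosomes translate every mRNA, and the respiratory chain and ATP synthase carry out oxidative phosphorylation in the inner membrane of the mitochondrion. Their genes are needed in nearly every cell, and most start within CpG islands, stretches dense in CpG that usually carry no methylation. Transcription factors such as NRF1 and the ETS factor GABP bind many promoters of nuclear genes for mitochondrial proteins, and binding of NRF1 is known to be sensitive to methylation of its site. RRBS cuts DNA with MspI at CCGG whether or not the CpG within is methylated. In many RRBS protocols the cut ends are rebuilt with supplied nucleotides, a step that the methods of the study do not mention.

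Whether a cytosine lay inside CCGG divided the measurements in these genes. The sequences of 3 CCGG sites next to transcription starts are shown, on the strand of the gene, as examples of promoters whose level rests on such a pair of cytosines. The capitals mark CCGG, and the sequences are those of the RefSeq assembly GRCm38.p6, the genome build mm10 to which the authors aligned. The sites lie upstream of *Ndufa10* (chr1:92473848-92473889, minus strand), a complex I subunit, of *Ndufab1* (chr7:122101869-122101910, minus strand), the mitochondrial acyl carrier protein that is also a complex I subunit, and of *Rps12* (chr10:23787266-23787307, minus strand), a protein of the cytosolic small subunit.
Ndufa10: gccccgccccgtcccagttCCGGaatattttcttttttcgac
Ndufab1: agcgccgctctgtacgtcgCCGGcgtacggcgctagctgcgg
Rps12: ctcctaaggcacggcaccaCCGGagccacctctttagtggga

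At the *Ndufa10* site, 8 bases before the start, the cytosine on the plus strand was at 100%, 100%, 100% and 97.2% in control-F1 lines 29, 37, 44 and 45 and at 96.4%, 95.7%, 96.9% and 100% in ICSI-F1 lines 11, 17, 20 and 21. The cytosine of the same CpG on the minus strand was at 4.26%, 6.52%, 5.45% and 2.72% in the control-F1 lines and at 3.90%, 0%, 7.61% and 2.38% in the ICSI-F1 lines. At the *Ndufab1* site the means of the 8 lines were 95.5% on the plus strand and 4.01% on the minus strand. A cytosine 2 bases away that is not in CCGG, at position 122101887, had no methylated read among 589 reads of the 8 lines, which allows a level of up to 0.509%. At the *Rps12* site the means were 85.1% and 3.53%. Among the ribosomal and respiratory chain genes, 135 CpGs within CCGG were measured on both strands, and 43 of them (31.9%) differed by more than 50 percentage points between strands. Of 747 CpGs outside CCGG, 0 did, and the largest difference was 5.71 percentage points.

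The 394 cytosines inside CCGG (18.9% of the total, in 115 genes) had mean levels of 22.3% to 28.5% in the 8 lines, and the 1692 outside CCGG (in 124 genes) had 1.44% to 4.00%. Both values lay close to those of the other 8871 autosomal genes, which had 23.0% to 28.9% inside CCGG and 2.39% to 5.24% outside. Of the cytosines inside CCGG, 206 (52.3%) were at 20% or more, and of those outside, 12 (0.709%). The corresponding shares in the other autosomal genes were 49.4% and 2.00%. The plot of mean levels by line shows both sets of cytosines.

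**Figure D1:**
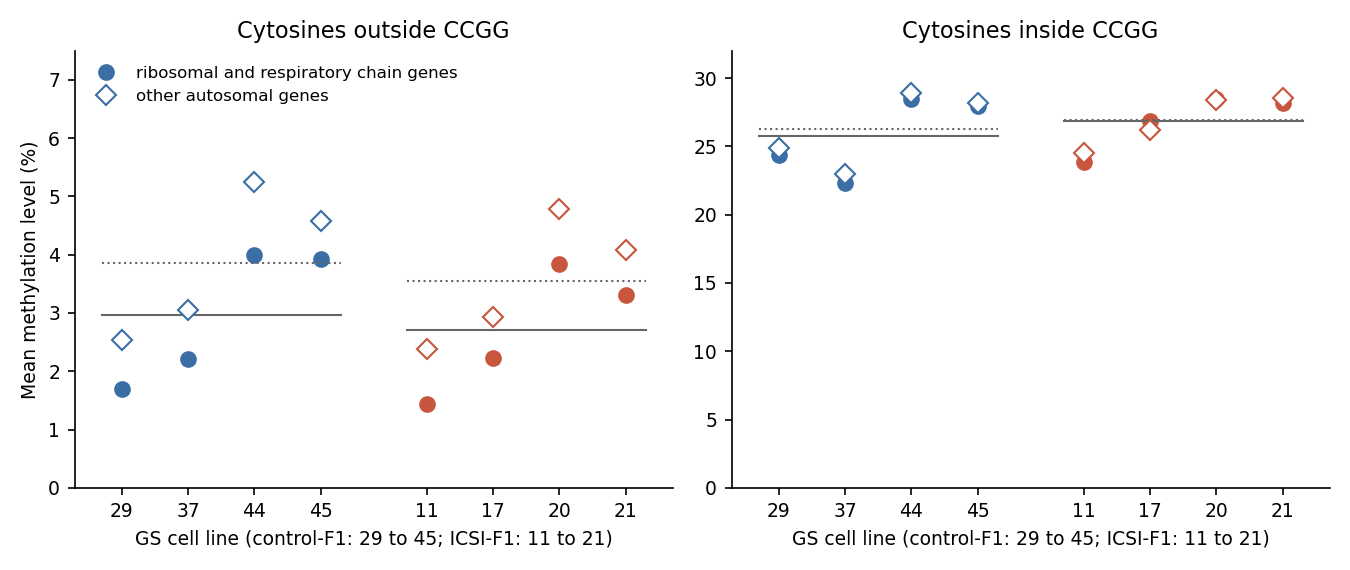
Mean methylation level (%) of ribosomal and respiratory chain genes (filled circles) and of the other autosomal genes (open diamonds) in each GS cell line, for cytosines outside CCGG (left) and inside it (right, with its own axis). Solid and dotted lines are the group means of 4 lines for the first and for the other genes. The levels inside CCGG lie between 22.3% and 28.9% and those outside between 1.44% and 5.24%, and within both groups the lines on the left (29 and 37, 11 and 17) lie below those on the right.

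The level of a CCGG cytosine followed the distance to the neighbouring MspI sites. For each cytosine, the fragment on the 5′ side and the fragment on the 3′ side were read from the genome along its own strand, with a bound of 150 bases, the read length in the methods of the study. This split was made after the values were seen. Where the fragment on the 5′ side was 20 to 150 bases long and the one on the 3′ side exceeded 300 bases, the 32 cytosines in 29 genes had a mean level of 86.9% (median 88.5%). With a fragment on the 3′ side over 150 and up to 300 bases, 31 cytosines averaged 53.4%, and with 150 bases or fewer, 166 cytosines averaged 26.9%. Where the fragment on the 5′ side exceeded 150 bases or was under 20 bases, medians were 4.92% (132 cytosines) and 3.87% (33 cytosines). Cytosines in CCGG of the other autosomal genes averaged 88.8%, 51.5% and 27.2% in the first 3 classes and had medians of 5.27% and 3.81% in the last pair. With a fragment over 150 bases on the 5′ side, the means were higher than the medians, at 9.33% in these genes and 16.3% in the others. In that class 6.82% and 15.3% of the cytosines were at 20% or more. The levels thus fell into the same order in both sets of genes. The part that any rebuilding of fragment ends has in these levels was not tested.

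**Figure D2:**
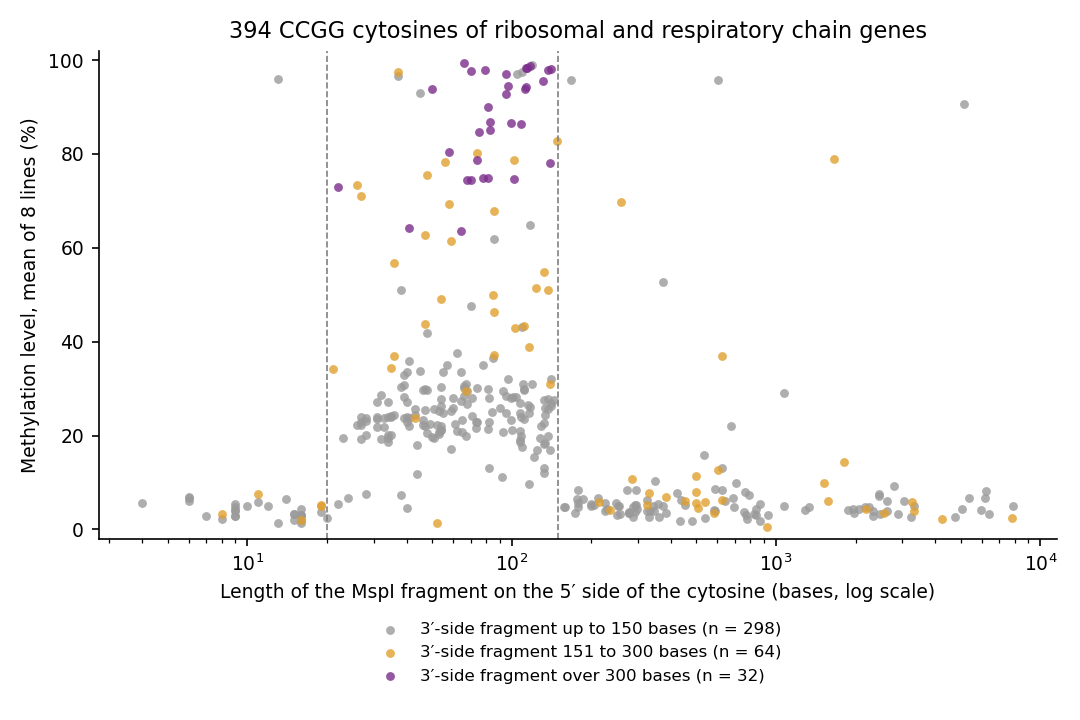
Methylation level (%, mean of 8 lines) of the 394 CCGG cytosines of ribosomal and respiratory chain genes against the length of the MspI fragment on the 5′ side (bases, log scale), coloured by the length of the fragment on the 3′ side. Dashed lines mark 20 and 150 bases. Between them the 32 purple points (3′ side over 300 bases) average 86.9% and the grey points (up to 150 bases) 26.9%, and to either side most points lie below 10%.

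Line 37 of the control-F1 group had the lowest level in the classes with a short fragment on the 5′ side and a longer one on the 3′ side. With more than 300 bases on the 3′ side, it had 64.0%, and the other 7 lines had 81.6% to 94.8%. With over 150 and up to 300 bases, it had 28.8%, and the others had 45.4% to 67.5%. The same held for island cytosines of the other autosomal genes, where line 37 had 64.2% and 25.6% in these classes. Line 37 also had the lowest coverage, with a median of 41 reads per cytosine against 56 to 82 in the other lines. The part that coverage has in these values was not tested.

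Cytosines outside CCGG gave the floor of each line. Within 400 bases of a listed start, a bound chosen after the values were seen, 1562 cytosines of 116 ribosomal and respiratory chain genes were measured, and the highest mean of 8 lines was 8.23%. Their mean level was 1.08%, 1.58%, 3.29% and 3.26% in control-F1 lines 29, 37, 44 and 45 and 0.814%, 1.4998%, 3.12% and 2.67% in ICSI-F1 lines 11, 17, 20 and 21. The spread between lines was larger than the difference between the group means, which were 2.30% ± 1.14 (SD, n = 4) in the control-F1 group and 2.03% ± 1.06 (SD, n = 4) in the ICSI-F1 group. The order followed a division into library sets, each with lines of both groups. In set 1, lines 29, 37, 11 and 17, whose labels leave the description field empty and which have fewer reads in the methods of the study, the level was between 0.814% and 1.58%, and in set 2, lines 44, 45, 20 and 21, between 2.67% and 3.29%. No methylated read was seen at 67.3% to 80.2% of these cytosines in set 1 and at 34.5% to 45.2% in set 2. With reads pooled over all 1692 cytosines outside CCGG, the level was 1.15% (95% Clopper-Pearson interval 1.09% to 1.22%, 108774 reads) in line 11 and 4.01% (3.90% to 4.11%, 138146 reads) in line 44. These intervals cover counting error only, since reads carry no molecular identifiers. The other autosomal genes showed the same split, with 1.65% to 2.37% in set 1 and 3.32% to 4.46% in set 2 within 400 bases. Among island cytosines outside CCGG alone, the lines ran from 0.732% to 3.29% in these genes (mean 2.16%). In the other autosomal genes they ran from 0.784% to 3.56% (mean 2.09%), so that a low floor was not particular to these genes. The part of incomplete conversion or of the run in this floor was not tested.

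Promoters at the floor included every class of these machines. Without CCGG cytosines, 124 genes had a level, with a median of 2.08%, and 111 of them (89.5%) were below 5%. Of the other autosomal genes, 8152 had a level, with a median of 2.29%, and 85.6% were below 5%. By class the median ran from 1.74% for the 8 assembly factors of complex I to 2.55% for 29 proteins of the cytosolic large subunit. The median was 2.29% for 12 proteins of the cytosolic small subunit, 2.16% and 1.92% for 15 proteins each of the mitochondrial large and small subunits, 1.93% for 13 subunits of complex I, 2.32% for 4 genes of complex III, 1.82% and 1.81% for 7 subunits and 7 assembly factors of complex IV, and 2.15% for 6 genes of ATP synthase.

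The lowest promoters with at least 10 cytosines were those of *Mrpl38*, *Rpl9*, *Rps20*, *Ndufa6* and *Mrps33*, which hold at most 1 CCGG cytosine each. *Mrpl38*, a protein of the mitochondrial large subunit, was at 0.275%, 0%, 1.14% and 1.76% in control-F1 lines 29, 37, 44 and 45 and at 0.347%, 0.0947%, 1.47% and 4.22% in ICSI-F1 lines 11, 17, 20 and 21. *Rpl9*, of the cytosolic large subunit, was at 2.62% ± 2.19 (SD, n = 4) in the control-F1 group and 0.401% ± 0.494 (SD, n = 4) in the ICSI-F1 group, and the groups overlapped. The promoter of *Ndufv2*, a flavoprotein subunit of complex I that carries an iron-sulfur cluster, is shown as an example of a start at the floor (chr17:66101510-66101809, minus strand, RefSeq window of 250 bases before to 50 after the start in GRCm38.p6). Capitals mark its 19 measured CpGs, whose 35 cytosines outside CCGG averaged 1.28%. Its other 2 measured cytosines were in CCGG, the higher of them at 65.0%.
Ndufv2: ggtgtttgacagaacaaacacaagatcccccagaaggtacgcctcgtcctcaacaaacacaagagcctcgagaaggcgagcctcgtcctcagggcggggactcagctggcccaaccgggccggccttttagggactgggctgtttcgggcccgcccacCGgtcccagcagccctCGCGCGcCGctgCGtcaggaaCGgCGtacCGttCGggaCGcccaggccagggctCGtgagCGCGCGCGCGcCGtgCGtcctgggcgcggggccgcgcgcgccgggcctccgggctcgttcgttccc

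Of 133 genes, 111 had a RefSeq promoter of this length, 93 of them with a start within 100 bases of the one in the table. The letters GCATGCGC, the core of the NRF1 motif, occurred on either strand in 15 of the 111 (13.5%), against 4.90% of 6619 promoters of the other autosomal genes and 2.71% of all 32851 RefSeq promoters. CCGGAAG, an ETS motif, occurred in 39.6%, against 19.0% and 8.86%, and AAGATGGCG, a YY1 motif, in 7.21%, against 2.22% and 1.40%. CCGCCC, bound by Sp factors, occurred in 58.6%, against 67.2% and 35.7%, and TATAAA in 3.60%, against 6.78% and 13.6%. CCGG itself occurred in 97.3%, against 91.3% and 52.8%. A match is a description of the letters, and promoters in the table had to hold CpGs that RRBS covers. The ETS letters contain CCGG, so that the 35 cytosines measured in ETS matches were all in CCGG and ranged from 1.34% to 97.4%. The 17 cytosines measured inside NRF1 matches, in 6 genes, were outside CCGG and ranged from 0% to 5.69%, with a mean of 2.60%.

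The highest of these lay in the promoter of *Rpl37a*, a protein of the cytosolic large subunit, shown for its NRF1 letters (chr1:72711010-72711309, plus strand, GRCm38.p6). Capitals mark the measured CpGs.
Rpl37a: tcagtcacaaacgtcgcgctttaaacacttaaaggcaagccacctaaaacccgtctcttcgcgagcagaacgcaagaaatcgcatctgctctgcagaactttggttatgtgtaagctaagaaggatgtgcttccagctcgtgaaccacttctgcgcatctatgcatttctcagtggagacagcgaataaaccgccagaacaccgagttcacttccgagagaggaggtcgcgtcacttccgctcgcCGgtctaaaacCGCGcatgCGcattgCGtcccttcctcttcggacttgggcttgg
The *Rpl37a* cytosine at position 72711275 was at 5.62% in the control-F1 group and 5.75% in the ICSI-F1 group. The other genes with a measured NRF1 match were *Rps6kb1*, an S6 kinase (highest cytosine 3.90%), *Ndufaf4*, a complex I assembly factor (3.396%), *Mrps18b*, of the mitochondrial small subunit (2.58%), *Ndufa6*, a complex I subunit (1.05%), and *Mrpl22*, of the mitochondrial large subunit (0.368%).

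Over all cytosines, 16 promoters (12.03%) had a level of 20% or more, against 15.9% of the other autosomal genes. Among the highest were those of *Rps6ka5* (95.8%), *Rps10* (87.5%), *Rpl41* (69.8%), *Ndufa10* (51.2%), *Mrps12* (46.8%), *Rps12* (44.3%), *Rpl11* (40.9%), *Cox17* (39.9%), *Mrpl42* (35.1%), *Mrps22* (34.1%) and *Ndufab1* (33.2%). Of these, *Rpl41*, *Ndufa10*, *Rps12*, *Mrpl42* and *Mrps22* were measured at 1 to 3 cytosines, all in CCGG. With CCGG cytosines left out, *Cox17*, a copper chaperone of complex IV, was at 2.37% and *Ndufab1*, at its single remaining cytosine, at 0%. Without CCGG cytosines, 4 of 124 promoters (3.23%) stood at 10% or more, against 10.9% of 8152 other genes, and these 4 were *Rps10* (98.2%), *Rps6ka5* (95.5%), *Mrps12* (40.4%) and *Rpl11* (29.6%).

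**Figure D3:**
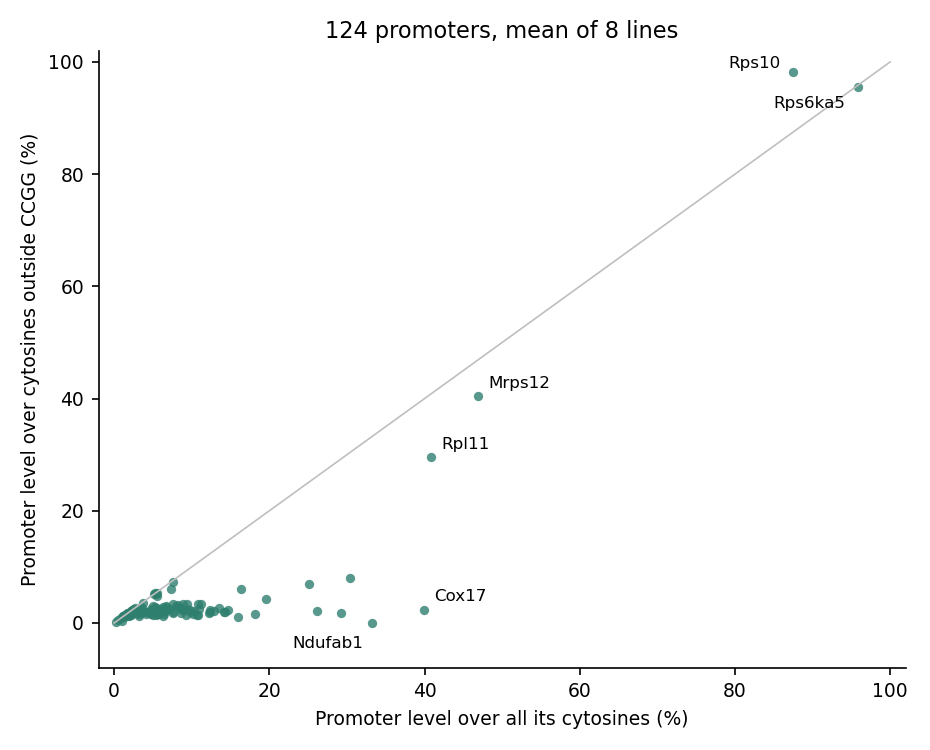
Level of 124 promoters over all their cytosines (x axis, %) and over cytosines outside CCGG (y axis, %), mean of 8 lines, with equality as a grey line. *Rps10*, *Rps6ka5*, *Mrps12* and *Rpl11* keep 29.6% or more on the y axis, and *Cox17* and *Ndufab1* lie near 0%. The cytosines of *Cox17* outside CCGG are all within 3 bases of its start.

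Every cytosine outside CCGG at 10% or more lay at least 436 bases from the listed start. There were 15 of them, in *Mrps12*, *Rps10*, *Rps6ka5*, *Rpl11*, *Rpl5*, *Rpl10a* and *Rpl21*, named here after their values were seen. Of 1562 cytosines within 400 bases, 0 reached 10%, and of the 130 farther away, 15 (11.5%) did. In the other autosomal genes, 1.04% reached 10% within 100 bases and 8.20% beyond 400 bases. *Rpl5*, *Rpl10a* and *Rpl21*, of the cytosolic large subunit, each had 1 such cytosine, at 13.1%, 10.5% and 11.03%.

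*Rps10*, a protein of the cytosolic small subunit, was measured at 8 cytosines between 831 and 974 bases upstream of its start, between genes in the GENCODE annotation (release vM21) and in the shore of a CpG island. The interval is shown because its CpGs were methylated in every line (chr17:27637490-27637653, minus strand, GRCm38.p6), with the 5 measured CpGs in capitals.
Rps10: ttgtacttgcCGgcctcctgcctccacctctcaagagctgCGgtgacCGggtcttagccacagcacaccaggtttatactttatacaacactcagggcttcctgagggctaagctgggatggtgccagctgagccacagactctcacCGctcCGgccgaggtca
The 8 cytosines had means of 93.1% to 100%. The cytosine at position 27637613, outside CCGG, was at 100% in each of the 8 lines. The nearest measured cytosine, 229 bases before the start and in CCGG, was at 12.6%. The start itself was not covered, so that the 87.5% describes a distant interval. *Rps6ka5*, which codes for the kinase MSK1 and for no ribosomal protein, was likewise measured only at 882 to 986 bases upstream, in an island shelf, where 7 cytosines had means of 94.1% to 97.5%. *Rpl41*, the smallest protein of the cytosolic large subunit, was measured at a single CCGG cytosine 872 bases upstream, within an exon of *Gm9176*.

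The cytosines of *Mrps12*, *Rpl11* and *Cox6b2* at high levels were not upstream of these genes. The table lists a start for each cytosine, and for 11 cytosines of these 3 genes (0.527% of the total, against 0.175% of the whole table) the listed transcript is short and the cytosine lies past its 3′ end. For *Mrps12*, of the mitochondrial small subunit, 3 such cytosines lay 10 to 24 bases past the 3′ end of the gene and were at 98.3%, 99.2% and, in CCGG, 78.9%. Its 3 cytosines 35 to 63 bases upstream of a listed start were at 0.798% to 2.38%. The 5 cytosines of *Rpl11*, of the cytosolic large subunit, lay 178 to 292 bases past the 3′ end of the gene, 25341 to 25455 bases from its most upstream start. They were at 30.99% and 28.1% outside CCGG and at 21.95%, 29.02% and 94.2% inside it. The 3 cytosines of *Cox6b2*, the testis isoform of a complex IV subunit, lay 17 to 61 bases past the 3′ end, at 4.65%, 7.30% and, in CCGG, 37.03%. Promoters of *Rpl11* and *Cox6b2* upstream of their main starts were thus not measured.

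Paralogs with restricted expression and the kinases were set beside the rest. Of 12 such paralogs listed, 4 had cytosines, and without CCGG they were at 1.56% for *Cox4i2*, a lung isoform of a complex IV subunit, 2.75% for *Rpl39l* and 5.16% for *Rpl10l*, both expressed in male germ cells, and 5.97% for *Cox6b2*. *Rpl10l*, an intronless copy on an autosome of the X-linked *Rpl10*, was measured at 3 cytosines within 94 bases of its start. Among the kinases, *Rps6ka1*, *Rps6ka2*, *Rps6ka4*, *Rps6kb1*, *Rps6kc1* and *Rps6kl1* lay between 1.24% and 3.64% without CCGG cytosines, and *Rps19bp1* at 2.03%, so that *Rps6ka5* was the exception. A list of 41 other genes, left out by the symbol rule, held further parts and assembly factors of these machines and regulators such as *Nrf1* and *Polrmt*. Of these genes, 15 had cytosines, and their median was 2.10% without CCGG. They ranged from 0.956% for *Ttc19*, a complex III factor, to 4.69% for *Rpsa*, a protein of the cytosolic small subunit.

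The comparison of ICSI-F1 with control-F1 GS cells asked whether conception by ICSI left a mark on promoter methylation in the germline of the offspring. In these housekeeping genes the difference in mean level was smaller than the spread between lines. Over all 2086 cytosines the mean was 7.27% ± 1.47 (SD, n = 4) in the control-F1 group and 7.26% ± 1.25 (SD, n = 4) in the ICSI-F1 group, a difference of −0.00428 percentage points. The difference was 0.289 percentage points in library set 1 and −0.297 in set 2. Outside CCGG the means were 2.96% ± 1.18 and 2.70% ± 1.07 (SD, n = 4 each), and inside it 25.8% ± 2.94 and 26.8% ± 2.10. These differences, too, were within the spread. The difference in promoter level had a median of −0.0322 percentage points over the 133 genes and −0.165 over the other autosomal genes, and 62 of the 133 were higher and 71 lower in ICSI-F1 lines.

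Limma on the promoter levels of all 9224 genes called 0 promoters at a false discovery rate of 0.05 (background 0%), and 0 of the 133. At an unadjusted p under 0.05 there were 290 of 9224, with 3 of the 133 higher and 3 lower in ICSI-F1 lines, and the smallest adjusted p among the 133 by limma was 0.92. A logistic model of the reads at each cytosine, as scaled by the authors, called 0 of 196818 cytosines (background 0%) and 0 of 2054 in these genes. At an unadjusted p under 0.05 it gave 13901 of 196818 cytosines, with 57 of the 2054 higher and 75 lower. With the library set as a covariate, both tests called 0, and the cytosines at an unadjusted p under 0.05 numbered 30376 of 196818, with 127 higher and 153 lower in these genes.

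In 3 of the 133 promoters every ICSI-F1 line lay above every control-F1 line, and in 0 every line lay below. Over all genes these shares were 0.672% and 0.791%. Those 3 promoters were of *Rpl41*, *Cox6b2* and *Ndufaf6*, a complex I assembly factor named here after its value was seen. At *Rpl41* the levels were 64.9%, 60.6%, 73.2% and 33.3% in control-F1 lines 29, 37, 44 and 45 and 84.6%, 83.1%, 75.7% and 82.6% in ICSI-F1 lines 11, 17, 20 and 21, so that lines 44 and 20 were only 2.50 percentage points apart. The means differed by 23.5 percentage points. *Ndufaf6*, at 3 cytosines, was at 0.578% ± 0.668 and 5.07% ± 1.52 (SD, n = 4 each). At the promoter of *Rpl11*, which overlapped, the level was 37.3% ± 6.72 and 44.4% ± 6.50 (SD, n = 4 each). *Cox6b2*, measured only past its 3′ end, was at 13.1% ± 2.81 and 19.6% ± 2.78 (SD, n = 4 each). With CCGG cytosines left out, 0 of 124 promoters were higher without overlap, against 0.566% of all genes, and 2 (1.61%) were lower, against 0.92%, namely *Mrps2*, of the mitochondrial small subunit, at 3.65% ± 1.42 and 1.14% ± 0.891, and *Rps27l*, a paralog of *Rps27*, at 3.06% ± 0.151 and 1.31% ± 0.663 (SD, n = 4 each). The promoters with the largest falls over all cytosines had 1 or 2 cytosines each and overlapped between groups. *Mrps22* was at 40.1% ± 24.8 and 28.1% ± 14.9, *Mrpl2* at 9.53% ± 8.12 and 3.65% ± 4.64, and *Mrpl57* at 7.46% ± 13.0 and 2.80% ± 4.17 (SD, n = 4 each). The value of *Mrpl57* rested on control-F1 line 45, at 26.9%, and without that line the ICSI-F1 mean was 1.83 percentage points the higher.

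**Figure D4:**
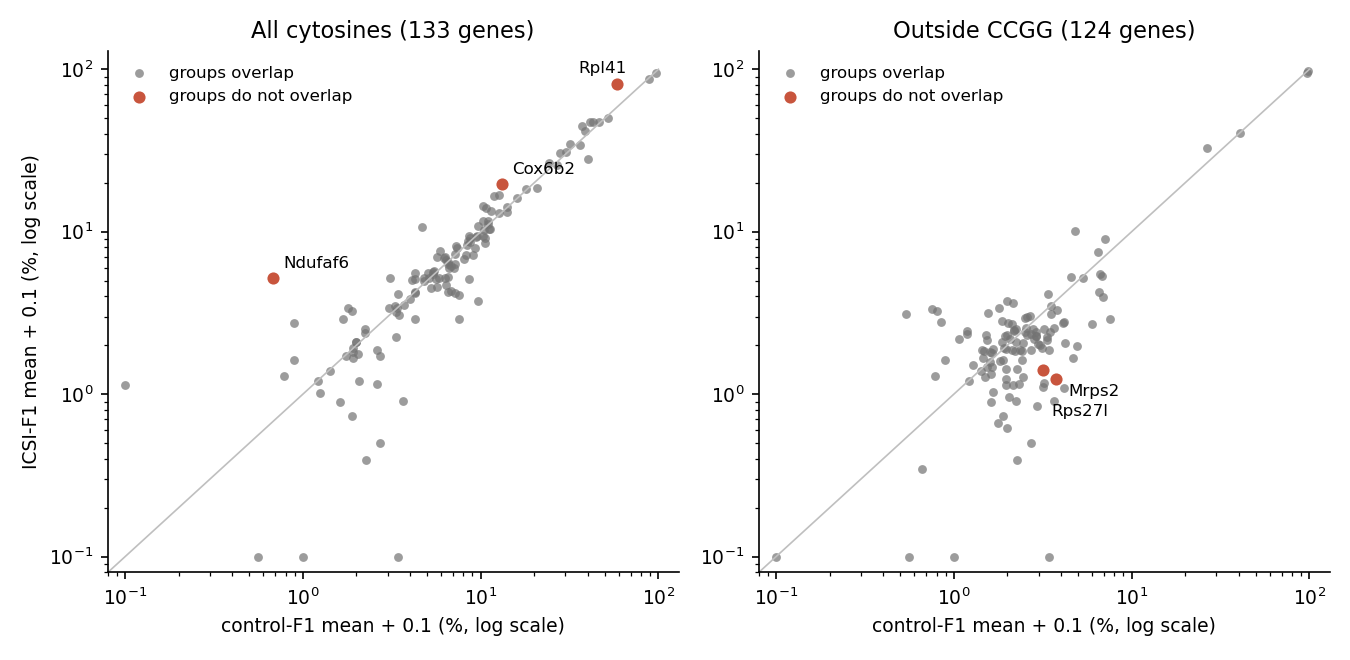
Promoter levels of ribosomal and respiratory chain genes, ICSI-F1 against control-F1 mean of 4 lines (each plus 0.1%, log scales), over all cytosines (left, 133 genes) and outside CCGG (right, 124 genes), with equality as a grey line. Red points mark promoters whose groups do not overlap, 3 higher in ICSI-F1 lines on the left and 2 lower on the right.

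A cytosine counted as hypermethylated when the mean of the ICSI-F1 lines was over 20 percentage points above that of the control-F1 lines and none of the ICSI-F1 lines fell below the control-F1 mean, and as hypomethylated in the mirror case. By this rule 7 of 2086 cytosines (0.336%) were hypermethylated, against 0.274% of the whole table, and 0 were hypomethylated, against 0.0506%. All 7 were in CCGG, in *Ndufaf7*, *Rpl11*, *Rpl41*, *Mrps15*, *Mrpl34*, *Mrpl17* and *Cox6b2*, and with CCGG cytosines left out the count was 0. *Ndufaf7*, a methyltransferase that assists complex I assembly, had the largest difference, 35.3 percentage points, at a cytosine 1 base before its start. Its levels were 50%, 14.3%, 76.3% and 88.4% in control-F1 lines 29, 37, 44 and 45 and 83.3%, 90.6%, 96.3% and 100% in ICSI-F1 lines 11, 17, 20 and 21, with 16 to 43 scaled reads, the reads of each line multiplied by the authors to bring the lines to a common depth. Line 37 was the lowest, and the groups overlapped.

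The called cytosines of *Ndufaf7*, *Mrps15*, *Mrpl34* and *Mrpl17* had a fragment of 56 to 81 bases on the 5′ side and of 253 to 393 bases on the 3′ side, the classes in which line 37 had the lowest mean. Line 37 had 14.3%, 23.5%, 26.8% and 39.5% at these cytosines, but it was not low at every cytosine of these classes and had 100% at those of *Ndufa10* and *Rpl21* with more than 300 bases on the 3′ side. The cytosine on the other strand of the CpG was measured for *Mrps15*, *Mrpl34* and *Mrpl17*, at 4.00% to 5.06%, and differed by less than 1 percentage point between the groups. For *Ndufaf7*, *Mrps15*, *Mrpl34* and *Mrpl17*, whose cytosines were chosen for their difference, the exact two-sided permutation test gave p = 0.0571, 0.314, 0.114 and 0.171. Without line 37 the count of hypermethylated cytosines was 3 (*Ndufaf7*, *Rpl41* and *Rpl11*), or 0.144% against 0.2% of the table, and *Mrps22*, with a difference of −23.3 percentage points, was the only hypomethylated cytosine, or 0.0479% against 0.0923%.

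**Figure D5:**
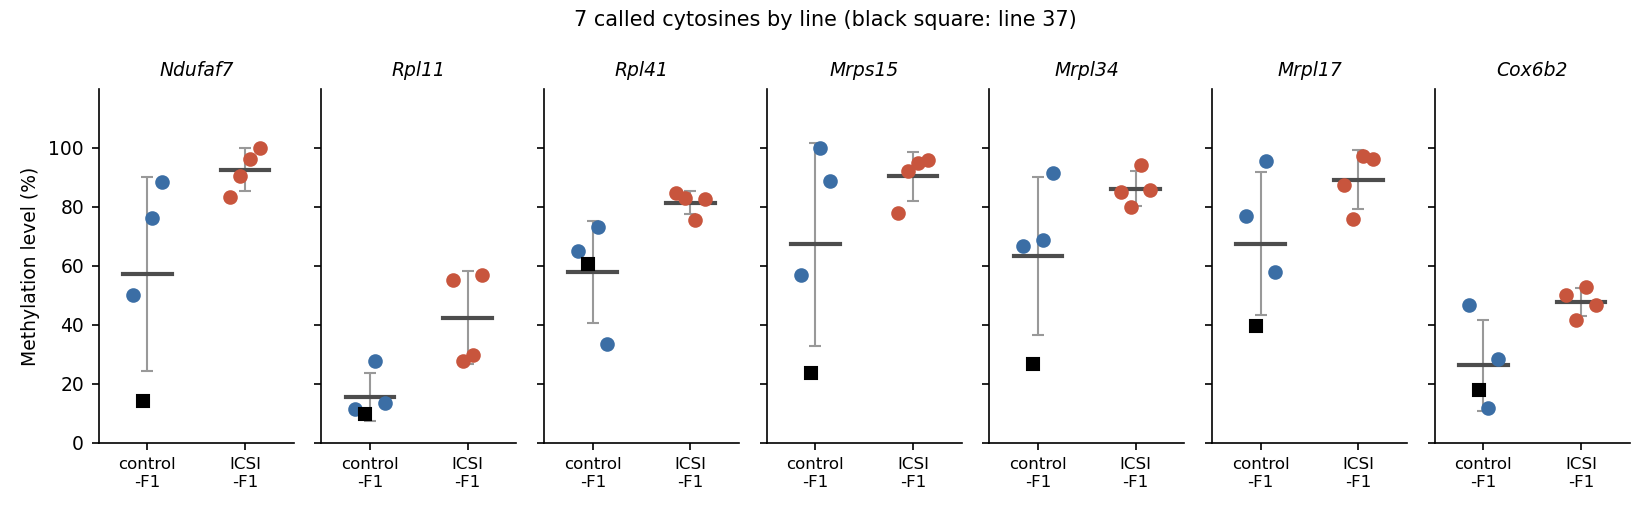
Methylation level (%) of the 7 hypermethylated cytosines in each control-F1 line (blue, line 37 as a black square) and each ICSI-F1 line (red), with group means and SD (n = 4, bars extending past 100% where the SD does). Line 37 lies between 14.3% and 39.5% and below every other line at *Ndufaf7*, *Mrps15*, *Mrpl34* and *Mrpl17*, and the groups are narrowly apart at *Rpl41* and *Rpl11*.

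*Rpl41* and *Rpl11* were the called cytosines without overlap between groups. Both are in CCGG with a long fragment on the 5′ side, of 259 and 1071 bases, and neither lies next to a start. Their sequences are given on the strand of the gene (chr10:128550157-128550208 and chr4:136027953-136028004, both minus strand, GRCm38.p6), with measured CpGs in capitals.
Rpl41: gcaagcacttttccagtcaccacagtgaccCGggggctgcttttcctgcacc
Rpl11: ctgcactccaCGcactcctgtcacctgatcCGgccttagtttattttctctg
At *Rpl11*, position 136027973, the levels were 11.4%, 9.65%, 27.7% and 13.6% in control-F1 lines 29, 37, 44 and 45 and 55.3%, 27.8%, 29.8% and 56.96% in ICSI-F1 lines 11, 17, 20 and 21, with 114 to 158 scaled reads. Line 44 at 27.7% and line 17 at 27.8% were next to each other, and their 95% Clopper-Pearson intervals of 19.5% to 36.4% and 18.8% to 38.6% overlapped. The means were 15.6% ± 8.23 and 42.5% ± 15.8 (SD, n = 4 each), with an adjusted p of 0.34 in the logistic model. The logistic model called this cytosine with at least 30 scaled reads in every line or without line 44, at an adjusted p of 0.0305 and 0.0304. In these settings it called 80 of 155863 and 70 of 192970 cytosines of the whole table, against 1 of 1715 and 1 of 2044 in these genes. The CpG 20 bases away, outside CCGG, was at 26.4% ± 4.78 and 35.6% ± 13.3 on the same strand and at 26.6% ± 16.5 and 29.6% ± 7.30 on the other (SD, n = 4 each), and the groups overlapped at both. At *Rpl41*, with 23 to 99 scaled reads, the adjusted p in the logistic model was 0.70. Its lines 44 and 20, at 73.2% and 75.7%, had overlapping 95% Clopper-Pearson intervals of 55.9% to 86.2% and 56.6% to 88.5%. *Cox6b2*, with 26.2% ± 15.3 and 47.8% ± 4.78 (SD, n = 4 each), overlapped at its called cytosine.

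Markers of the labelled cell type were at low levels. Of 18 germ cell genes, 9 had cytosines (*Rpl10l* among them), and without CCGG their promoters were at 2.23% to 5.16%, with *Ddx4*, a germ cell RNA helicase, at 3.60% and *Dazl*, a germ cell RNA-binding protein, at 2.62%. Of 10 spermatogonial genes, 5 had cytosines, at 1.14% to 3.36%. Of 9 fibroblast genes, 2 had cytosines, with *Col1a2*, a collagen chain, at 78.2% and *Col1a1* at 6.41%, each at 1 cytosine outside CCGG. A low promoter level does not show that a gene is expressed.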

How the data were processed

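Genomic DNA of 8 GS cell lines was digested with MspI, bisulfite treated and sequenced by the authors as paired reads of 150 bases. Reads were trimmed in RRBS and non-directional modes and aligned to mm10 in non-directional mode. The submitters' processing notes name Trim Galore 0.5.0, Bismark 0.20.0 and methylKit 1.16.0. The deposited values are coverage, methylated and unmethylated reads per cytosine within 1000 bases of a listed start. The authors multiplied them by a factor per line and rounded them, so they are a score and not counts. Cytosines under 10 scaled reads in any line are not in the table, and strands were not joined.

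The factor of each line was recovered from the steps of its values, and intervals used the reads so unscaled (median 41 to 82 per cytosine and line, the lowest in line 37). The logistic model was fitted to the scaled reads, whose factors ran from 1 in lines 45 and 21 to 1.875 in line 37. Its p-values thus rest on more reads than were sequenced in the lines with a factor above 1. The level is methylated over total scaled reads in percent. Members were taken by gene symbol, and 0 sample columns were unmatched. The members, lists and tests were chosen with earlier results of these data known. Promoter levels (arcsine square root) were tested with limma 3.58.1 in R 4.3.3 over all genes, and cytosines with a quasi-binomial logistic model whose dispersion was moderated across cytosines, both with Benjamini-Hochberg adjustment at 0.05. Single values were tested by exact two-sided permutation of lines. Other steps used Python 3.11.15, numpy 2.4.6, pandas 2.3.3 and scipy 1.17.1. Genes named were the 12 highest promoters at 20% or more, those with a cytosine past the 20% rule, the 5 lowest with at least 10 cytosines, the 3 largest rises and 3 largest falls, up to 6 with a measured NRF1 match, the restricted paralogs and the kinases. A gene that this rule names is not reported here. Tested on simulated data for the control-F1 against ICSI-F1 promoter comparison with 9224 genes, limma called 100% of 100 promoters raised by 20 percentage points and 0.144% of 9024 unchanged ones. On simulated cytosines, the logistic model called 78.5% of 2726 raised by 20 percentage points. The raised promoters were drawn from low ones with at least 5 cytosines, as many as 100 of the genes reported on here have. Each cytosine of a line was drawn independently of the others, and no library set was simulated. These rates thus do not hold for promoters with fewer cytosines or for a spread that the cytosines of a line share. Samples were grouped by their labels, and line numbers differ between groups. Alternatives were other coverage minimums and thresholds, joined strands, each line left out, and the library set alone or as a covariate. Leaving out CCGG or cytosines past a 3′ end was added after the data were seen.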

Additional observations from a re-analysis of the deposited data

Results flagged for a closer look

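In 4 of 106 groups of 4 lines examined, the highest or lowest line stood apart from the other 3, and chance gives such a gap in about 1 in 20 groups. At the promoter of *Mrpl57*, a protein of the mitochondrial large subunit with 2 cytosines outside CCGG, control-F1 line 45 was at 26.9% and the other control-F1 lines at 0% to 2.20%. At the promoter of *Rps6ka2*, which codes for the kinase RSK3, control-F1 line 45 was at 9.38% against 1.01% to 1.48% in the other control-F1 lines, and ICSI-F1 line 20 at 12.6% against 0.784% to 1.57% in the other ICSI-F1 lines. At *Mrps12*, ICSI-F1 line 20 was at 45.5% and the others at 47.6% to 47.9%.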

How the results depend on the processing

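The difference in mean level between groups ranged from −0.431 to 0.524 percentage points over 19 alternatives, both from leaving out a line. No promoter of these genes passed limma in any alternative run. Beside each count of cytosines past the rule, the share of these genes is given against that of the whole table. Hypermethylated cytosines, 7 by the rule above, numbered 3 with at least 20 scaled reads in every line (0.157%, against 0.233%) and 1 with at least 30 (0.0577%, against 0.199%). With strands joined there were 4 (0.332%, against 0.251%). At a threshold of 10 percentage points there were 17 (0.815%, against 0.841%), and at 25 there were 2 (0.0959%, against 0.147%). When every line of a group had to lie beyond every line of the other, 2 remained (0.0959%, against 0.0673%). Within library set 1 there were 20 (0.959%, against 0.871%), and within set 2 there were 7 (0.336%, against 0.42%). Of the 7 by the rule above, *Rpl41* and *Rpl11* were called within both sets, *Cox6b2* only within set 2, and the others only within set 1. With cytosines past a 3′ end left out there were 5 (0.241%, against 0.267%), and with CCGG cytosines left out 0 (against 0.161%). Leaving out 1 line gave 3 (without line 37, 0.144%, against 0.2%) to 12 (without line 44, 0.575%, against 0.545%, or line 11, 0.575%, against 0.467%). Hypomethylated cytosines, 0 by the rule above, numbered 10 at a threshold of 10 percentage points (0.479%, against 0.519%) and 4 within library set 2 (0.192%, against 0.264%). With a line left out they numbered 0 to 1 (1 without line 29, 0.0479%, against 0.0874%, or line 37, 0.0479%, against 0.0923%). With at least 30 scaled reads, the logistic model called 1 of 1715 cytosines of these genes, in *Rpl11*, against 80 of 155863 in the whole table. With a line left out it called 0 to 1 in these genes. The 1 was the same *Rpl11* cytosine without line 44, or 1 of 2044 against 70 of 192970 in the whole table. It called 0 with the dispersion of each cytosine left unmoderated, a setting that found 27.4% of simulated rises of 20 percentage points. With CCGG cytosines left out, promoters without overlap between groups numbered 0 higher (0.566% of all genes) and 2 lower (1.61%, all genes 0.92%). The causes were not tested. Of 450 repeats of 45 named differences, 446 stayed within 1 SD and 4 moved further (*Ndufa10* and *Ndufaf4*, within library sets). Leaving out 1 of 4 lines cannot move a group mean by 1 SD of that group. Only the repeats within a library set could thus move further, and the count of 446 does not measure stability. Of the 450, 59, in 23 differences, changed sign, among them *Mrpl57*, from −4.66 to 1.83 percentage points without line 45. No paired analysis was possible because the line numbers of the groups differ, and the library set as a covariate changed no call at the adjusted threshold. With 4 lines a group, cytosines covered by few reads carry wide intervals, and the exact permutation test cannot go below p = 0.02857.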

Other observations

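Over the whole table, 34804 of 203645 cytosines (17.1%) lay in CCGG, and they made up 286 of 557 hypermethylated and 41 of 103 hypomethylated cytosines. The promoter of *Atp5g3*, a subunit of the ATP synthase ring, shows the pattern next to a start, and was chosen after its values were seen. Its CCGG cytosine 113 bases upstream was at 92.7%, the cytosine of the same CpG on the other strand at 4.90%, and its cytosines outside CCGG within 10 bases of the start at 0% to 3.59%.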
